A study of Mus musculus with 24 samples.

Results

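Transforming growth factor beta (TGF-β) transcripts were followed in lungs of mice with and without the receptors for tumor necrosis factor (TNF) under ozone (O3). The 9 genes taken as members were the ligands Tgfb1, Tgfb2 and Tgfb3, the receptors Tgfbr1 and Tgfbr2, the target genes Ccn2 and Tgfbi, and the inhibitors Smad7 and Skil. Members were all probe sets (groups of short probes that together measure one transcript) annotated to one of these genes alone. They were 19 of the 22644 probe sets on the array and 9 of the 11597 genes measured, and all 19 passed the filter on low signal.

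Each of the 24 arrays held RNA of lung homogenate, left lung per the labels, of 1 male mouse, aged 6 to 8 weeks per the methods, with 3 mice in each of 8 groups. Tnfr+/+ mice were C57BL/6J, and Tnfr-/- mice carried disrupted Tnfrsf1a and Tnfrsf1b, the genes of both TNF receptors, in every cell. Exposure was to filtered air, or without a break to O3 at 0.3 ppm, lasting 24, 48 or 72 h, and the air mice were kept in a chamber of their own. How long the air mice were kept in it is not given in the labels. The genotypes were bought as separate strains, so the receptor loss and any other difference between the strains cannot be told apart. Lung homogenate was measured, so fewer cells of a type and less RNA per cell cannot be told apart.

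TGF-β is secreted in a latent form, held by its propeptide and by latent TGF-β binding proteins in the matrix, and is released by integrins, thrombospondin or proteases. The active ligand binds TGFBR2, which recruits and phosphorylates TGFBR1, and this kinase activates SMAD2 and SMAD3, which enter the nucleus with SMAD4. SMAD7, itself a target, blocks the receptor, and SKIL (SnoN) holds back SMAD-driven transcription. In lung the pathway is known for its part in matrix deposition, repair and the restraint of inflammation.

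Values below are normalized intensities, the authors' MAS5 signals made to share one distribution over the 24 arrays by quantile normalization. Differences are on the log2 scale, with the standard error (SE) of the limma model fitted to all 20537 probe sets kept, and adjusted p is limma's p after Benjamini-Hochberg adjustment over all of them. A probe set was called, and is said to have risen or fallen, where the adjusted p was below 0.05. Of all probe sets 11.9% to 31.6% had no overlap between an O3 group and air of its genotype. Between genotypes at one exposure 13% to 23.1% had none. One array differed from the rest, that of the first Tnfr+/+ mouse at 72 h (replicate 1). Its Gapdh 3′/5′ signal ratio was 4.45 against 0.890 to 1.74 on the others. Its actin ratio, 1.18, lay within the 1.01 to 1.95 of the others, and its mean r with other arrays, 0.909, was lowest. Results described here that were called, lost their call or moved by over 1.5 times without this array are also given without it. The Gapdh ratio also separated groups, at 1.53 to 1.74 in Tnfr+/+ against 1.03 to 1.22 in Tnfr-/- lungs at 24 h. At 48 h it was 1.30 to 1.33 against 1.01 to 1.13, and the actin ratio did not overlap either time. Tnfr-/- lungs had a Gapdh ratio of 1.28 to 1.435 in air and 0.890 to 1.22 under O3. The part of this in the differences below was not tested. The targeted Tnfrsf1b had lower intensity in Tnfr-/- lungs on 1418099_at (151 to 266 against 356 to 525) and overlapping ranges on 1448951_at, and Tnfrsf1a on 1417291_at had 1399 to 2341 against 2030 to 3623. The position of these probes against the disrupted parts of the genes could not be worked out, and they test no label. Surfactant and other alveolar type II cell markers had summed intensities of 92568 to 105920 on the arrays, as a lung should give.

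Tgfbi, which encodes an extracellular matrix protein that binds integrins and collagens and was named for its induction by TGF-β, was the member with the largest response to O3. It rose in both genotypes, and it was higher in O3-exposed Tnfr-/- lungs than in O3-exposed Tnfr+/+ lungs at 24 and 48 h on its brightest probe set. Tgfbr2 was the other gene with a difference between genotypes and rose at 72 h in Tnfr+/+ lungs, on a single probe set. Tgfb1 rose at 72 h over both genotypes, and a dim Tgfb2 probe set fell. Ccn2, Smad7, Skil, Tgfb3 and Tgfbr1 were called in no comparison.

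Counted over the 19 probe sets in Tnfr+/+ lungs, 0, 3 and 4 were called at 24, 48 and 72 h, where 0.0828%, 1.17% and 3.1% of all probe sets were called. At 24 h 3 of the 19 had an unadjusted limma p below 0.05, where 5.89% of all probe sets did, and 0 passed the unadjusted 0.01 of the study's own threshold, which 1.72% of all probe sets did. The counts in Tnfr-/- lungs were 3, 3 and 3, where 1.1%, 3.83% and 3.96% of all were. Over both genotypes the counts were 3, 3 and 6, against 1.28%, 7.32% and 10.7%. All of these calls were on Tgfbi, Tgfbr2, Tgfb1 and Tgfb2 probe sets, and the 3 called Tgfbi probe sets made up most of them, so they are counts of probe sets and not of genes. These calls use the spread of all 24 arrays: fitted on the 6 arrays of each comparison alone, the differences keep their size but none was called in Tnfr+/+ lungs (adjusted p of 0.072 to 0.26 for the 7) or at 24 h in Tnfr-/- lungs (0.056 to 0.096), while the 6 Tgfbi calls at 48 and 72 h in Tnfr-/- lungs held. On the 12 arrays of both genotypes Tgfb1 had an adjusted p of 0.077 and Tgfb2 of 0.1.

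Between genotypes 0, 2, 1 and 0 of the 19 were called in air and at 24, 48 and 72 h, where 0.0876%, 1%, 0.166% and 0.161% of all were, and 3 in the average over exposures, where 5.65% were. On the 6 arrays of each comparison alone the 3 calls at 24 and 48 h had adjusted p of 0.083 to 0.28. Unadjusted limma p was below 0.05 for 3, 5, 7 and 1 of the 19 in air and at 24, 48 and 72 h, where it was for 6.92%, 14%, 10.8% and 11.1% of all probe sets. Interactions were called for 0 of the 19 at every time (0.00974%, 0% and 0.00487% of all), with 4, 4 and 1 below an unadjusted p of 0.05, where 6.22%, 5.51% and 5.31% of all probe sets were. The median log2 difference of the 19 was 0.17, 0.17 and 0.14 in Tnfr+/+ and 0.21, 0.39 and 0.40 in Tnfr-/- lungs, beside medians of all probe sets between -0.03 and 0.00.

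**Figure D1:**
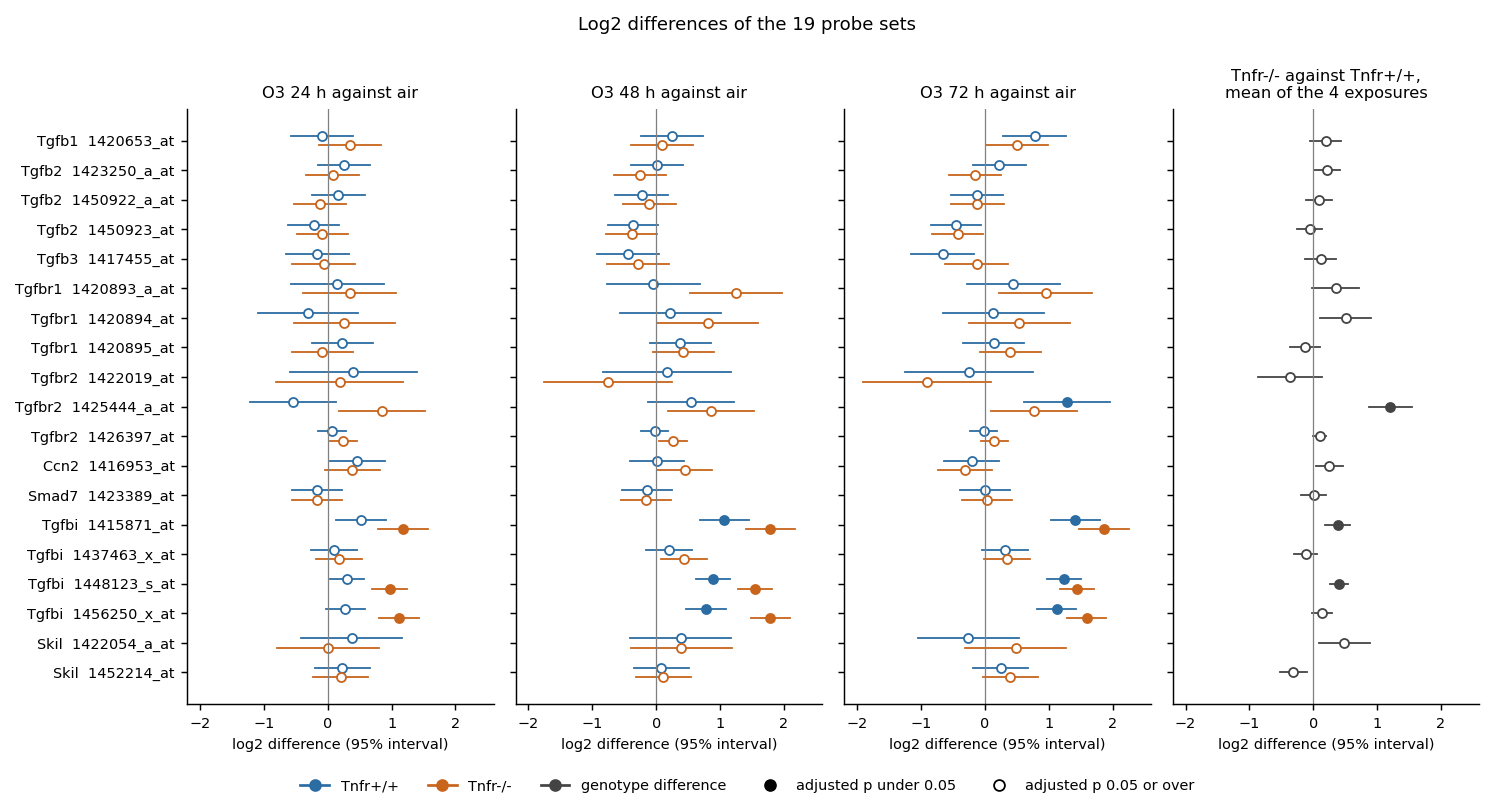
Log2 difference with its 95% interval for the 19 probe sets, O3 against air at 24, 48 and 72 h in Tnfr+/+ (blue) and Tnfr-/- (orange) lungs in 3 panels, and Tnfr-/- against Tnfr+/+ averaged over exposures in the fourth. Filled points had a limma adjusted p below 0.05 (3 arrays a group). At 24 h 3 Tgfbi probe sets are filled in Tnfr-/- and none in Tnfr+/+ lungs, and from 48 h the 3 are filled in both genotypes.

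The Tgfbi and Tgfbr2 promoters are shown because these genes carried most of the calls. Each sequence printed is the 250 bases before the annotated start of the gene, from RefSeq on GRCm38.p6, written 5′ to 3′ on the strand of the gene, with matches to the core SMAD-binding letters CAGAC (or GTCTG, the same letters on the other strand) in capitals.
Tgfbi chr13:56609336-56609585 (+): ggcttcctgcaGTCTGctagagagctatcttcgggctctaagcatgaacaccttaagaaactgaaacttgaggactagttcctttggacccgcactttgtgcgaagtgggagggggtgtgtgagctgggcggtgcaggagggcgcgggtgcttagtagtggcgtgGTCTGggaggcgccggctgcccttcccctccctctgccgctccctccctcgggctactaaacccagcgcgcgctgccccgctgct
Tgfbr2 chr9:116175364-116175613 (-): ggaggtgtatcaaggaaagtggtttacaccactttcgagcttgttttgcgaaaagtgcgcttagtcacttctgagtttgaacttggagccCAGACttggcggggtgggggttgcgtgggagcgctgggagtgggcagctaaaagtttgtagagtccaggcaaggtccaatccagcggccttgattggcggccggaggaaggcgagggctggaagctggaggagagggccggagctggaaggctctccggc
The Tgfbi window held 2 matches, both as GTCTG, whose first bases lay 239 and 85 bases before the start, and the Tgfbr2 window held 1, as CAGAC, 160 bases before it. CAGAC on either strand occurs in 42.2% of the 32851 RefSeq promoter windows of the same length, so 1 or 2 matches are a description of these windows and no more. The Tgfb1 window held 0 matches and the one before the Tgfbr1 gene start 0. The other Tgfbr1 window and the Tgfb2 window lie inside the annotated genes, before other transcript starts, and held 1 and 2. The AP-1 letters TGANTCA, found in 6.75% of all windows, were in neither printed window.

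The transcribed gene Tgfbi lies at chromosome 13, 56609586 to 56639359, on GRCm38.p6. On 1448123_s_at, its brightest probe set, the Tnfr+/+ lungs had normalized intensities of 1017, 1082 and 1170 in air, 1416, 1498 and 1149 after 24 h of O3, 2411, 1898 and 1766 after 48 h, and 2338, 2533 and 2832 after 72 h. In the Tnfr-/- lungs they were 1086, 1049 and 1182 in air, 2170, 2259 and 2055 after 24 h, 3329, 3218.5 and 3099 after 48 h, and 2813, 3114 and 3072 after 72 h. The air groups overlapped, every Tnfr-/- lung at 24 h lay above every Tnfr+/+ lung at 24 h, and the 3 Tnfr-/- lungs at 48 h were among the 4 highest of the 24.

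**Figure D2:**
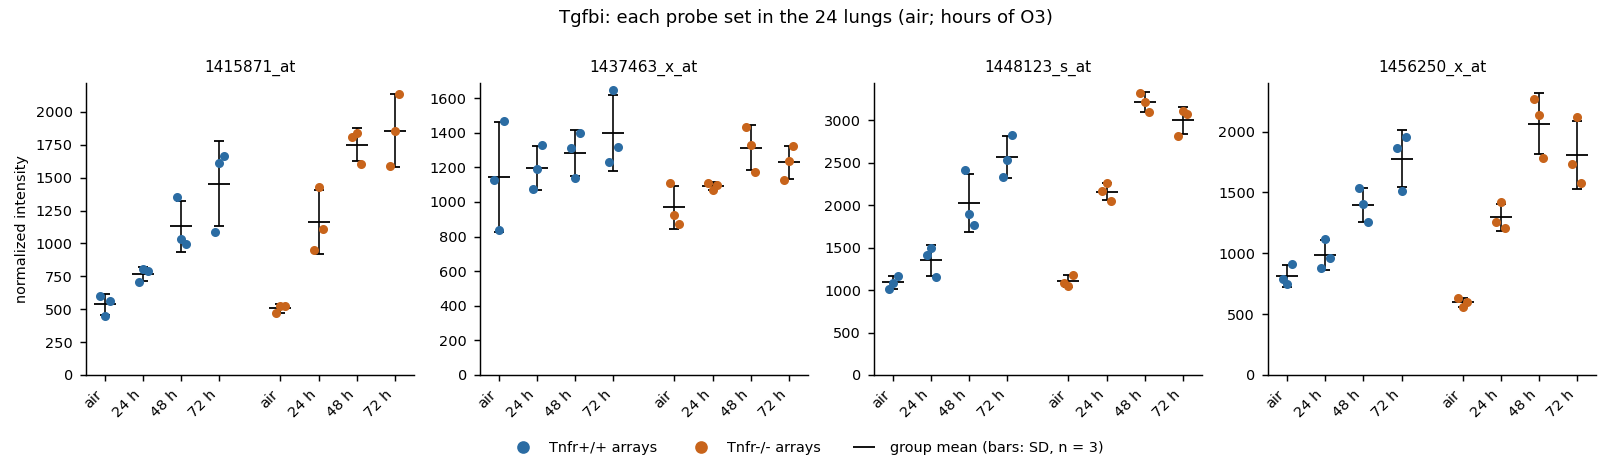
Normalized intensity (linear axis) of the 4 Tgfbi probe sets in the 24 lungs, by exposure (air, 24, 48 and 72 h of O3) and genotype (Tnfr+/+ blue, Tnfr-/- orange). Points are single lungs and bars the mean and SD of 3. On 1448123_s_at the 3 Tnfr-/- lungs at 24 h lie at 2055 to 2259 and the 3 Tnfr+/+ lungs at 1149 to 1498, while 1437463_x_at stays between 835 and 1649 throughout.

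In Tnfr+/+ lungs the log2 difference of 1448123_s_at from air was 0.31 (SE 0.13, limma adjusted p = 0.75) at 24 h, 0.88 (adjusted p = 0.0011) at 48 h and 1.23 (adjusted p = 1.5e-05) at 72 h, the last a 2.35-fold rise. The same differences in Tnfr-/- lungs were 0.97 (adjusted p = 0.00042), 1.54 (adjusted p = 1.2e-06) and 1.44 (adjusted p = 2e-06), with the highest fold, 2.91, at 48 h. The 3 times were each set against the same 3 air lungs of their genotype, so these differences share their controls. Tgfbi was thus called from 24 h on in Tnfr-/- lungs and from 48 h on in Tnfr+/+ lungs.

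Direct comparison of the genotypes put 1448123_s_at at 0.02 (adjusted p = 1) in air, 0.68 (SE 0.13, adjusted p = 0.016) at 24 h, 0.68 (adjusted p = 0.032) at 48 h and 0.23 (adjusted p = 0.52) at 72 h, Tnfr-/- against Tnfr+/+. Averaged over the 4 exposures the difference was 0.40 (SE 0.06, adjusted p = 0.0015). The difference between the O3 responses of the genotypes, the interaction, was 0.66 at 24 h (unadjusted p = 0.00172) and 0.66 at 48 h (unadjusted p = 0.00178), and neither was called after adjustment over all probe sets (limma adjusted p = 0.44 and 0.69). Leaving out 1 array ended the 24 h genotype call in 3 fits (Tnfr+/+ O3 24 h replicate 3, Tnfr-/- O3 24 h replicate 1 or 2; adjusted p up to 0.078) and the 48 h call in 5 (Tnfr+/+ O3 48 h replicate 2 or 3, any Tnfr-/- O3 48 h array; up to 0.15). The 48 h call was also lost with the replicate number as a block (adjusted p = 0.064).

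A second Tgfbi probe set, 1415871_at, had intensities of 600, 450 and 563 in Tnfr+/+ air lungs and 467, 527 and 527 in Tnfr-/- air lungs. At 24 h the values were 708, 808 and 789 in Tnfr+/+ and 948, 1427 and 1110 in Tnfr-/- lungs, at 48 h 1353, 1037 and 996 against 1809, 1838 and 1606, and at 72 h 1083, 1609.5 and 1667 against 1585, 1851 and 2138. The genotypes did not overlap at 24 or 48 h and overlapped in air and at 72 h. Against air it rose by 1.07 (SE 0.18, adjusted p = 0.0053) at 48 h and 1.42 (adjusted p = 0.00023) at 72 h in Tnfr+/+ lungs, and by 1.18 (adjusted p = 0.0028), 1.79 (adjusted p = 1.5e-05) and 1.87 (adjusted p = 6.6e-06) at the 3 times in Tnfr-/- lungs. The genotype difference was 0.58 (adjusted p = 0.15) at 24 h and 0.64 (adjusted p = 0.21) at 48 h, and it was called only in the average over exposures (0.38, adjusted p = 0.022).

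The third, 1456250_x_at, whose suffix marks probes that may bind other transcripts, rose by 0.78 (SE 0.15, adjusted p = 0.0098) at 48 h and 1.12 (adjusted p = 0.00023) at 72 h in Tnfr+/+ lungs. In Tnfr-/- lungs it rose by 1.12 (adjusted p = 0.00042), 1.79 (adjusted p = 1.2e-06) and 1.59 (adjusted p = 3.3e-06). Its air values were 785, 745 and 914 in Tnfr+/+ and 634, 556 and 597 in Tnfr-/- lungs, so here the Tnfr-/- lungs started lower (-0.45, unadjusted p = 0.00672, adjusted p = 0.41), and its genotype differences were called nowhere. Its interactions were 0.84 at 24 h (adjusted p = 0.38) and 1.01 at 48 h (adjusted p = 0.39). The 48 h call in Tnfr+/+ lungs was lost on leaving out replicate 2 of the Tnfr+/+ air group or replicate 1 of the 48 h group (adjusted p up to 0.056).

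The fourth Tgfbi probe set, 1437463_x_at, was called nowhere, with O3 differences of 0.10 to 0.32 in Tnfr+/+ and 0.18 to 0.44 in Tnfr-/- lungs (SE 0.17). Over the 24 arrays, which share their groups, the first 3 correlated with each other at Pearson r of 0.93 to 0.97 and with the fourth at 0.49 to 0.60. Among the 11588 other genes measured, the one whose brightest probe set followed 1448123_s_at most closely over the 24 arrays was Clec4n (r = 0.959), a C-type lectin receptor of macrophages and dendritic cells, then Lrp2 and Mcm5 (both 0.936). Clec4n also headed the order for 1415871_at (r = 0.975) and 1456250_x_at (r = 0.953).

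Some alveolar macrophage markers moved with Tgfbi. The summed intensity of the 6 markers measured was 5962 to 8459 in air, 7370 to 8616 at 24 h, 10788 to 16024 at 48 h and 11268 to 15905 at 72 h in Tnfr+/+ lungs. Sums in Tnfr-/- lungs were 7124 to 7865, 10229 to 13549, 16034 to 17898 and 13665 to 14305, so the sums did not overlap between the genotypes at 24 h, nor, by a small margin, at 48 h. Of the 6 markers 0, 3 and 3 rose at 24, 48 and 72 h in Tnfr+/+ lungs, 1, 2 and 2 rose in Tnfr-/- lungs, and none was called between genotypes, where the median difference over the 6 was 0.14 at 24 h and -0.01 at 48 h. Chil3, a secreted chitinase-like protein, made up most of the sum at 4241 to 14370, and none was at 0, the lowest being Siglecf at 34.9 to 125. The part of macrophage number in the Tgfbi values was not tested.

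**Figure D3:**
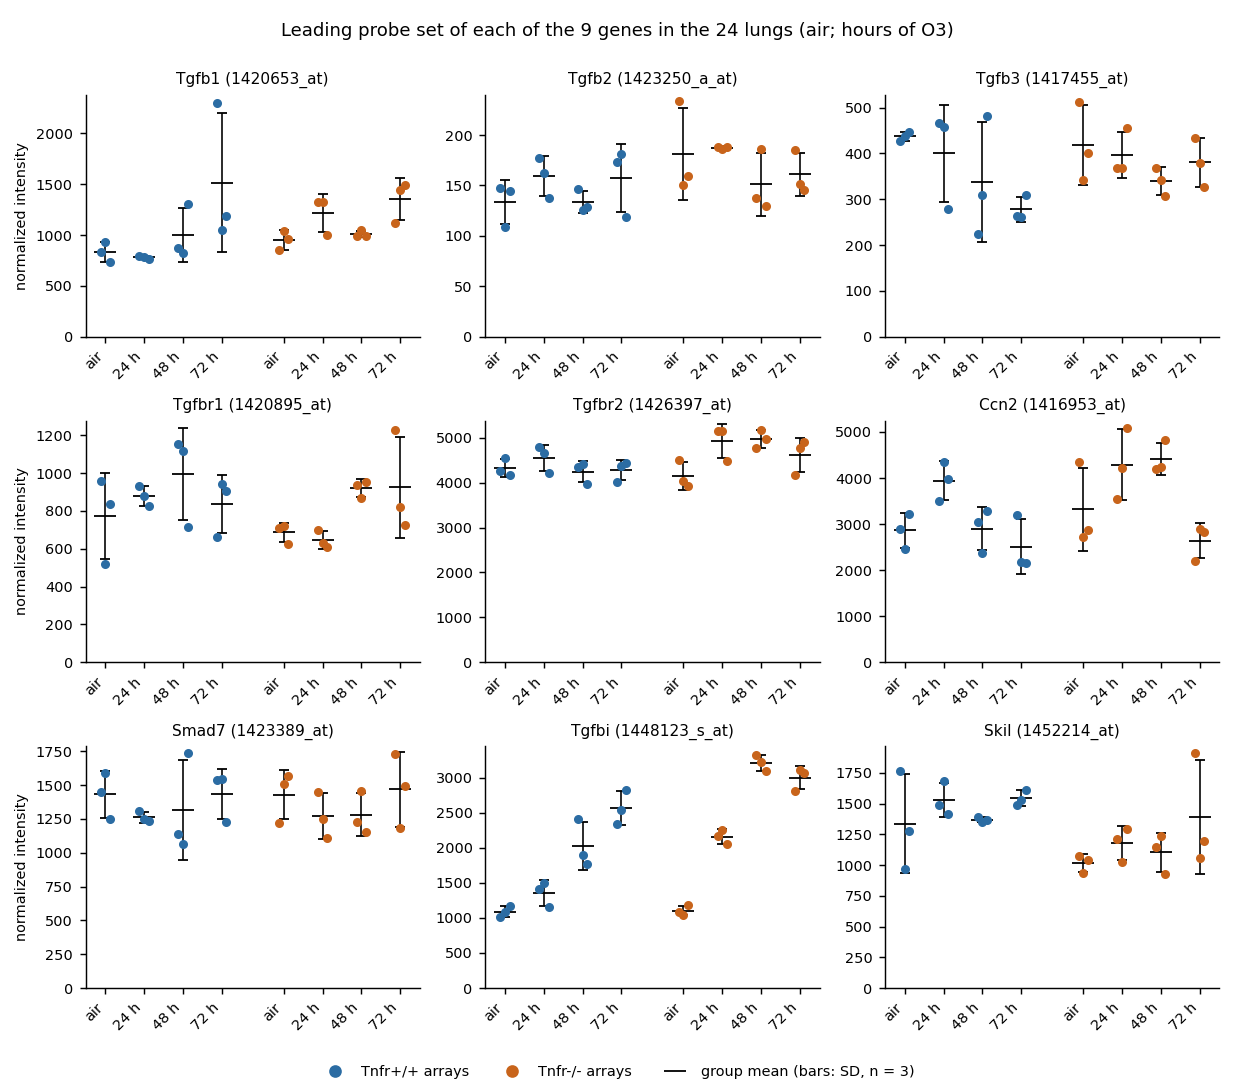
Normalized intensity (linear axis, own scale in each panel) of the brightest probe set of each of the 9 genes in the 24 lungs, by exposure and genotype (Tnfr+/+ blue, Tnfr-/- orange). Points are single lungs and bars the mean and SD of 3. Ordered by mean, neighbouring groups fail to overlap in the Tgfbi panel alone, which runs from 1017 to 1182 in air up to 3329, and Smad7 stays between 1067 and 1738.

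Among the ligands, Tgfb1, the main isoform of inflammation and fibrosis (chromosome 7, 25687002 to 25705077), was read by 1420653_at. Its intensities in Tnfr+/+ lungs were 834, 933 and 733 in air, 796, 781 and 768 after 24 h, 878, 819 and 1309.8 after 48 h, and 2299.9, 1053 and 1191 after 72 h. In Tnfr-/- lungs they were 852, 1042.5 and 965 in air, 1326, 1328 and 999 after 24 h, 989, 1046 and 995 after 48 h, and 1118.5, 1447 and 1497 after 72 h. The 72 h lungs lay above the air lungs in both genotypes, and the highest value of all came from the array with the high Gapdh ratio.

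Tgfb1 rose by 0.64 at 72 h over both genotypes (SE 0.16, adjusted p = 0.017), and by 0.47 (adjusted p = 0.022) without Tnfr+/+ O3 72 h replicate 1. Within a genotype the differences at 72 h were 0.78 in Tnfr+/+ (adjusted p = 0.075) and 0.50 in Tnfr-/- lungs (adjusted p = 0.28), and the first was 0.43 (adjusted p = 0.26) without that array. At 24 h the Tnfr-/- lungs lay above the Tnfr+/+ lungs without overlap, by 0.63 (adjusted p = 0.22).

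Tgfb2, an isoform known for its part in development and epithelial-mesenchymal signalling (chromosome 1, 186622787 to 186709697), had 3 dim probe sets, of which 1 was called. That one, 1450923_at, had 137, 145 and 147 in Tnfr+/+ air lungs and 108, 99.9 and 107 at 72 h, and 179.7, 101 and 133 in Tnfr-/- air lungs and 116, 99.6 and 86.1 at 72 h. The Tnfr+/+ groups did not overlap, and the Tnfr-/- groups did. Over both genotypes it fell by 0.44 at 72 h (SE 0.13, adjusted p = 0.042), a call that ended in 11 of the 24 fits that leave out 1 array (adjusted p up to 0.11): without any Tnfr+/+ air array, Tnfr+/+ O3 72 h replicate 2 or 3, replicate 1 or 3 of the Tnfr-/- air group, Tnfr-/- O3 24 h replicate 3, Tnfr-/- O3 48 h replicate 3, or Tnfr-/- O3 72 h replicate 2 or 3. The brighter 1423250_a_at, at 108 to 233, and 1450922_a_at, at 99.0 to 192, were called nowhere.

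Tgfb3, the third isoform (chromosome 12, 86056743 to 86079041), ranged from 224 to 512 on 1417455_at. The Tnfr+/+ lungs had 427, 438 and 446.5 in air and 262, 262 and 310.1 at 72 h, which did not overlap, for a log2 difference of -0.66 with a 95% interval of -1.15 to -0.17 (adjusted p = 0.14). In Tnfr-/- lungs the same difference was -0.13, with an interval of -0.62 to 0.36, and the 2 were not called different (interaction 0.53, interval -0.16 to 1.23).

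Of the receptors, Tgfbr2 (chromosome 9, 116087695 to 116175363), which binds the ligand, gave its calls on 1425444_a_at, a dimmer probe set. The Tnfr+/+ lungs had 225, 186.5 and 127 in air, 172, 80.1 and 123 after 24 h, 319.9, 248 and 205 after 48 h, and 309, 454 and 548 after 72 h. The Tnfr-/- lungs had 346, 344 and 294 in air, 547, 784 and 473 after 24 h, 618, 680.5 and 495 after 48 h, and 346.5, 671 and 751 after 72 h. The genotypes did not overlap in air, at 24 h or at 48 h, and they overlapped at 72 h.

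Compared with Tnfr+/+ lungs, Tnfr-/- lungs were higher by 2.30 at 24 h (SE 0.32, adjusted p = 0.0013), a 4.93-fold difference, and by 1.21 on average over exposures (SE 0.16, adjusted p = 0.00026). The differences in air (0.91, unadjusted p = 0.0111, adjusted p = 0.47), at 48 h (1.23, adjusted p = 0.17) and at 72 h (0.39, adjusted p = 0.66) were not called. The last was 0.16 (adjusted p = 0.97) without Tnfr+/+ O3 72 h replicate 1. Under O3 it rose by 1.29 at 72 h in Tnfr+/+ lungs (adjusted p = 0.034), a call lost on leaving out replicate 2 or 3 of the Tnfr+/+ air group, or the same numbers of the 72 h group (adjusted p up to 0.15). No O3 lung overlapped air in the Tnfr-/- genotype, with differences of 0.84, 0.86 and 0.77 (adjusted p = 0.26, 0.15 and 0.22). At 72 h the margin was small, 346.47 against 345.96. Groups did not overlap for 21.9%, 31.6% and 26.1% of all probe sets in these comparisons. Over both genotypes 1425444_a_at rose by 1.03 at 72 h (adjusted p = 0.0063). The interaction at 24 h was 1.39 (unadjusted p = 0.00647, adjusted p = 0.59).

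The brightest Tgfbr2 probe set did not share these calls. Group means on 1426397_at lay between 4154 and 4968, none of its differences was called, and its average genotype difference was 0.10 with a 95% interval of -0.01 to 0.21, which excludes the 1.21 of 1425444_a_at. At 48 h its Tnfr-/- lungs (4763 to 5169) did not overlap Tnfr+/+ lungs (3972 to 4425) or Tnfr-/- air lungs (3929 to 4503). Groups did not overlap for 19% and 31.6% of all probe sets in these comparisons. The dim 1422019_at, at 12.1 to 75.4, was not called either. Over the 24 arrays the 3 probe sets correlated with each other at r of -0.41, -0.21 and 0.50. Which Tgfbr2 transcripts each one reads is not given in the annotation used here. The genes closest to 1425444_a_at over the arrays were Fbxo6 (r = 0.863), Snx5 (0.855) and Xrn2 (0.845).

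**Figure D4:**
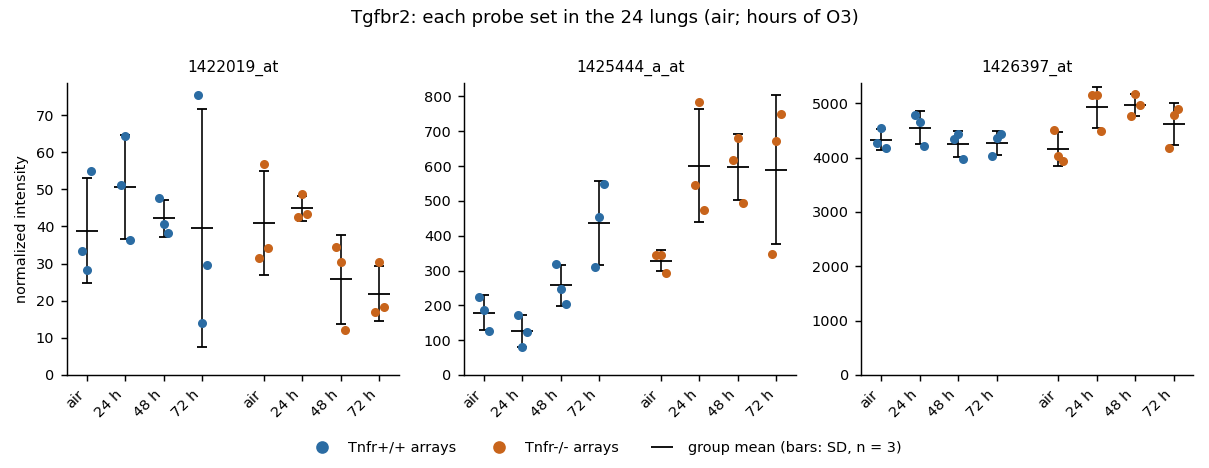
Normalized intensity (linear axis, own scale in each panel) of the 3 Tgfbr2 probe sets in the 24 lungs, by exposure and genotype (Tnfr+/+ blue, Tnfr-/- orange). Points are single lungs and bars the mean and SD of 3. On 1425444_a_at the Tnfr-/- lungs at 24 h lie at 473 to 784 and the Tnfr+/+ lungs at 80.1 to 172, a separation not seen on the other 2.

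Tgfbr1, the kinase that phosphorylates SMAD2 and SMAD3 (chromosome 4, 47353222 to 47414926), was not called on any of 3 probe sets. Its brightest, 1420895_at, ranged from 521 to 1229. On the dim 1420893_a_at the Tnfr-/- lungs had 77.1, 107 and 48.6 in air and 149, 161 and 222 at 48 h, which did not overlap, for a difference of 1.25 (SE 0.35, adjusted p = 0.051). This value lay at the threshold. Over the 24 fits that leave out 1 array and the 9 other settings together, it was called in 10 (adjusted p of 0.0073 to 0.048) and not in the rest.

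Of the remaining target, Ccn2 (connective tissue growth factor, a matricellular protein; chromosome 10, 24595442 to 24598683) had intensities on 1416953_at of 2902, 2470 and 3221 in Tnfr+/+ air lungs and 3499, 4341 and 3983 at 24 h. In Tnfr-/- lungs it had 4355, 2719 and 2878 in air, 3552, 4225 and 5084 after 24 h, 4192, 4241 and 4815 after 48 h, and 2200.1, 2892 and 2825 after 72 h. The Tnfr+/+ lungs at 24 h lay above air, by 0.46 (SE 0.20, adjusted p = 0.79), and over both genotypes the 24 h difference was 0.43 (adjusted p = 0.19). At 72 h the differences had the other sign, -0.21 and -0.31, the first -0.39 (adjusted p = 0.37) without Tnfr+/+ O3 72 h replicate 1. Between genotypes at 48 h, where Tnfr+/+ lungs had 3041, 2376 and 3277, the groups did not overlap (0.62, adjusted p = 0.27).

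Smad7, the inhibitory SMAD (chromosome 18, 75367365 to 75395935), had intensities of 1067 to 1738 on 1423389_at over all lungs. Its O3 differences from air ranged from -0.17 to 0.03, with 95% intervals that together span -0.56 to 0.42, and its average genotype difference was 0.00 with an interval of -0.19 to 0.20. Skil (chromosome 3, 31095058 to 31122923) had 925 to 1914 on 1452214_at, with O3 differences of 0.08 to 0.40 and an average genotype difference of -0.31 (SE 0.10, adjusted p = 0.077). Its dimmer 1422054_a_at, at 28.2 to 159, had the other sign between genotypes (0.48, adjusted p = 0.13), and the 2 correlated at r = -0.16 over the arrays.

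Of 58 further pathway genes listed by role, 50 were measured, each by its brightest probe set. Of the 50, 0, 1 and 2 rose at 24, 48 and 72 h in Tnfr+/+ lungs, where 0.0682%, 0.901% and 1.84% of all probe sets did, and 0, 0 and 1 fell, where 0.0146%, 0.273% and 1.26% did. In the Tnfr-/- genotype 3, 4 and 5 rose, where 0.726%, 2.6% and 2.6% of all did, and 0, 1 and 1 fell, where 0.375%, 1.24% and 1.36% did. The median log2 difference over the 50 was 0.01, -0.06 and -0.02 in Tnfr+/+ lungs, beside 0.003, -0.02 and -0.02 over all genes. In Tnfr-/- lungs it was 0.05, 0.10 and 0.01, beside -0.02, -0.06 and -0.06 over all genes. On the arrays of each comparison alone 5 of the 19 pathway calls within a genotype or between genotypes passed, all in Tnfr-/- lungs (Tnc at the 3 times, Thbs1 and Fn1 at 48 h). Interactions were called by limma for 0 of the 50, with 4, 7 and 3 below an unadjusted p of 0.05 at the 3 times, where 6.22%, 5.51% and 5.31% of all probe sets were.

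Of 12 genes of TGF-β storage and activation, Thbs1, thrombospondin 1, which can activate latent TGF-β, was the one called at all 3 times in Tnfr-/- lungs. Its 1460302_at intensities were 1455, 860 and 906 in Tnfr-/- air lungs, 3776, 4288 and 3929 at 24 h, and 3620, 3544 and 4005 at 48 h, with no overlap. It rose by 1.94 (SE 0.31, adjusted p = 0.0028), 1.83 (adjusted p = 0.0017) and 1.31 (adjusted p = 0.019) there, and the differences in Tnfr+/+ lungs were 1.22 (adjusted p = 0.25), 1.17 (adjusted p = 0.074) and 0.52 (adjusted p = 0.4). Without Tnfr+/+ O3 72 h replicate 1, at 836 beside 2581 and 2051 in its group, Thbs1 was called in Tnfr+/+ lungs too, at 1.22 (adjusted p = 0.022), 1.17 (adjusted p = 0.0061) and 1.00 (adjusted p = 0.028). Itgb6, the β6 chain of an integrin that activates latent TGF-β on epithelium, rose by 1.00 at 72 h in Tnfr-/- lungs (adjusted p = 0.019; 0.73 and 0.097 in Tnfr+/+). Ltbp1, a latent TGF-β binding protein, fell by 1.08 at 72 h in Tnfr+/+ lungs (adjusted p = 0.025), and its difference in Tnfr-/- lungs was -0.25. The Tnfr+/+ difference was -0.90 (adjusted p = 0.094) without Tnfr+/+ O3 72 h replicate 1. The 72 h calls each ended when 1 array was left out: for Thbs1 Tnfr-/- air or O3 72 h replicate 2 or 3 (adjusted p up to 0.088), for Itgb6 Tnfr-/- air replicate 2 or 3 or O3 72 h replicate 1 or 2 (up to 0.096), and for Ltbp1 any Tnfr+/+ air array or O3 72 h replicate 1 or 2 (up to 0.094). Platelets hold much THBS1 and TGF-β1, and 5 platelet markers were summed, none of them called. The sum was 2937 to 3359 in air, 2694 to 4576 at 24 h, 2267 to 2697 at 48 h and 2255 to 2767 at 72 h in Tnfr-/- lungs. In Tnfr+/+ lungs it was 3004 to 3420, 2991 to 3920, 2431 to 3212 and 2818 to 3100.5. The part of platelets in the Thbs1 values was not tested.

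Of 8 co-receptors and receptor regulators, Bambi, a pseudoreceptor that blunts TGF-β signalling, fell in Tnfr-/- lungs by 0.96 at 48 h (adjusted p = 0.036) and 1.09 at 72 h (adjusted p = 0.017). The 48 h call ended without any Tnfr-/- air array or O3 48 h replicate 2 or 3 (adjusted p up to 0.19), and the 72 h call without Tnfr-/- air replicate 1 or 3 or O3 72 h replicate 2 or 3 (up to 0.093). Its difference at 72 h in Tnfr+/+ lungs was -0.74 (adjusted p = 0.11). None of the 10 SMAD genes and co-regulators was called by limma in any comparison with all arrays, and at 48 and 72 h of O3 in Tnfr-/- lungs 2 of the 10 had an unadjusted p below 0.05, 1 in each direction, where 18.4% and 17% of all probe sets did. Smad4, the SMAD shared by the signals of the family, had a difference of -0.40 at 48 h and -0.38 at 72 h over both genotypes (adjusted p = 0.058 for each), and without Tnfr+/+ O3 72 h replicate 1 it was called lower, at -0.40 (adjusted p = 0.028) and -0.47 (adjusted p = 0.013). Smad2, which the receptor phosphorylates, had its smallest adjusted p, 0.2, at 48 h in Tnfr-/- lungs, with a difference of 0.30.

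Of 20 other target genes, 0, 1 and 2 rose in Tnfr+/+ lungs and 2, 3 and 3 in Tnfr-/- lungs, and none fell, beside the shares of all probe sets given above. Tnc, the matrix glycoprotein tenascin C, had 302, 214 and 285 in Tnfr+/+ air lungs, 169, 116 and 117 in Tnfr-/- air lungs, and 917, 824 and 1096 in Tnfr-/- lungs at 24 h on 1416342_at. It rose by 2.83 (SE 0.31, adjusted p = 8.4e-05), 2.88 (adjusted p = 2.9e-05) and 2.51 (adjusted p = 8.8e-05) in Tnfr-/- lungs and by 1.56 (adjusted p = 0.016) and 1.45 (adjusted p = 0.016) at 48 and 72 h in Tnfr+/+ lungs, where the calls ended without Tnfr+/+ air replicate 2, O3 48 h replicate 1 or 2 (adjusted p up to 0.087), or O3 72 h replicate 2 or 3 (up to 0.071). Its 24 h difference there, 1.27 (adjusted p = 0.24), was called without Tnfr+/+ O3 72 h replicate 1 (adjusted p = 0.028). The Tnfr-/- lungs started lower in air (95% interval of the difference -1.66 to -0.34, adjusted p = 0.37), and the interaction at 24 h was 1.55 (adjusted p = 0.49).

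Fn1, fibronectin, rose by 0.97 at 48 h (adjusted p = 0.0063) and 0.79 at 72 h (adjusted p = 0.026) in Tnfr-/- lungs, beside 0.27 and 0.26 in Tnfr+/+ lungs, the second 0.40 (adjusted p = 0.35) without replicate 1 of the 72 h group. Bhlhe40, a transcriptional repressor, rose by 0.97 at 72 h in Tnfr+/+ lungs (adjusted p = 0.034) and by 0.94 (adjusted p = 0.035) and 1.19 (adjusted p = 0.0073) at 48 and 72 h in Tnfr-/- lungs. The Tnfr+/+ difference was 0.94 (adjusted p = 0.081) without Tnfr+/+ O3 72 h replicate 1. Junb, an AP-1 subunit, had 617, 564 and 615 in Tnfr-/- air lungs and 1392, 1310 and 1127 at 24 h, against 641, 603 and 502 in Tnfr+/+ lungs at 24 h. It rose by 1.09 in Tnfr-/- lungs at 24 h (adjusted p = 0.028) and was higher there than in Tnfr+/+ lungs by 1.14 (adjusted p = 0.026). The Junb response call ended without any one of its 6 arrays and the genotype call without any Tnfr+/+ O3 24 h array or Tnfr-/- O3 24 h replicate 1 or 2 (adjusted p up to 0.11 in both). The Fn1 call at 72 h ended without Tnfr-/- air or O3 72 h replicate 2 or 3 (up to 0.13). The Bhlhe40 calls ended without any Tnfr+/+ air array or O3 72 h replicate 1 or 3 in Tnfr+/+ lungs (up to 0.14), and without Tnfr-/- air replicate 1 or 3 or O3 48 h replicate 2 or 3 at 48 h in Tnfr-/- lungs (up to 0.17).

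**Figure D5:**
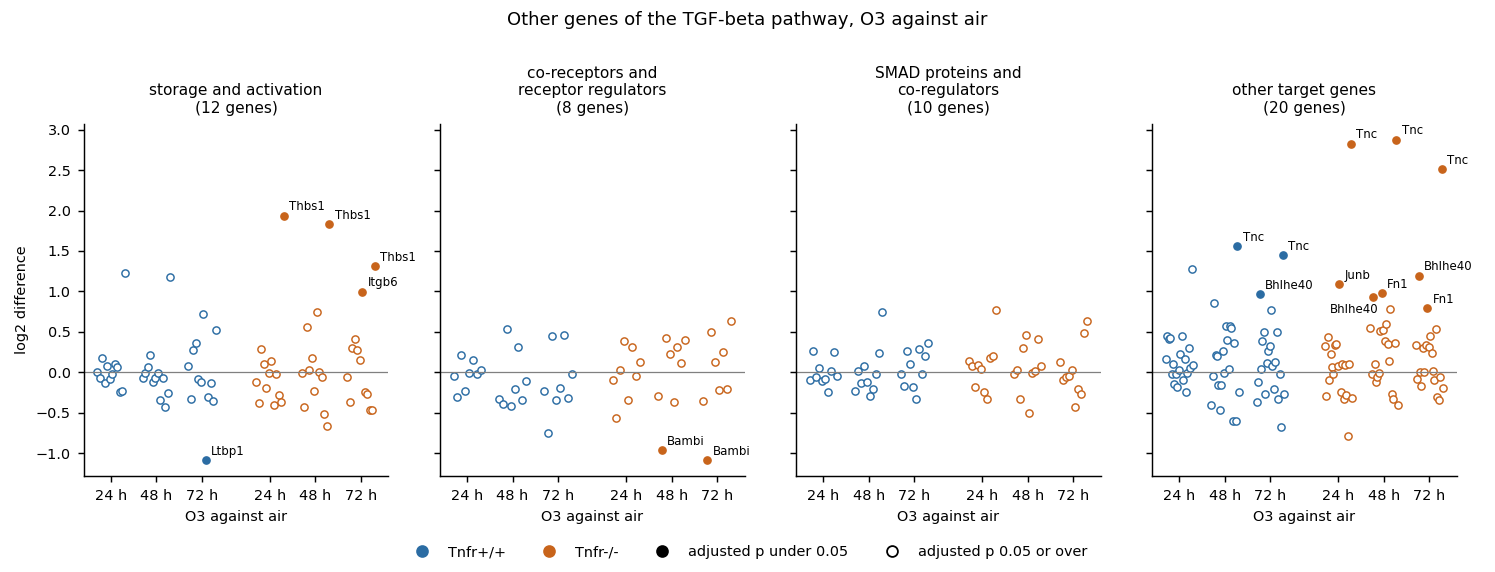
Log2 difference of O3 against air for 50 pathway genes in 4 panels by role (12 of storage and activation, 8 co-receptors, 10 SMAD genes, 20 other targets), by time and genotype (Tnfr+/+ blue, Tnfr-/- orange). Each point is a gene's brightest probe set, and filled, named points had a limma adjusted p below 0.05 (3 arrays a group). Tnc and Thbs1 in Tnfr-/- lungs lie highest, at up to 2.88 and 1.94, and the SMAD panel has no filled point.

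Markers of cell types that express these genes had the following values, of which few passed the test within a genotype. The summed intensity of 7 fibroblast markers was 11224 to 13200 in air and 7892 to 8729 at 72 h in Tnfr+/+ lungs, and 10561 to 11226 and 7751 to 9035 in Tnfr-/- lungs, with 1 of 7 called lower at 72 h in Tnfr+/+, 0 of 7 in Tnfr-/- lungs and none at 0. The sum of 6 endothelial markers was 17306 to 19464 and 9119 to 14869 in Tnfr+/+ and 16320 to 19526 and 13043 to 13400 in Tnfr-/- lungs, with 2 and 1 of 6 called lower at 72 h. The sum of 5 smooth muscle markers was 1698 to 2785 and 1203 to 1862 in Tnfr+/+ and 1686 to 1837 and 1372 to 1941 in Tnfr-/- lungs, overlapping air in both, with 1 and 0 of 5 called lower. Over both genotypes at 72 h, 3 of 7 fibroblast, 4 of 6 endothelial and 1 of 5 smooth muscle markers were called lower. Of all probe sets 5.05% were called lower in that comparison. The part of cell numbers in the calls of Tgfb2 1450923_at, Ltbp1 and Bambi was not tested.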

How the data were processed

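The authors hybridized total lung RNA (Trizol) of 24 mice to Affymetrix MOE430A arrays, 1 mouse an array, and deposited one MAS5 signal intensity a probe set, scaled to a common level within each array (array medians 213 to 247); Affymetrix Expression Console is named in the submitters' processing notes. MAS5 scaling does not make the arrays share a distribution, so quantile normalization over the 24 arrays (limma 3.58.1, R 4.3.3) was applied before log2, with a floor of 1, below which 0.0883 to 0.296% of values of an array fell. A probe set was kept if any array had it at the 20th percentile of its signals or higher, which left 20537 of 22644 after 64 control probe sets were set aside. One limma model with a mean for each group gave 17 comparisons, with 16 residual and 2.38 prior degrees of freedom. P-values were adjusted by Benjamini-Hochberg within each comparison, over all probe sets kept. The interval given with a difference is the model's 95% interval. The unadjusted thresholds of the study were 0.01 for O3 against air and 0.05 between genotypes.

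Genes were named through the platform annotation, which gave 20338 probe sets 1 gene, 691 several and 1551 none; 20309 of the single-gene probe sets matched RefSeq by Entrez gene. A gene of several probe sets was led by the one of highest mean signal. Named were the members, and of each pathway list the genes called within a genotype or between genotypes at one exposure (at most 6), or, where a list had none, the 2 of smallest adjusted p. The members, the 4 pathway lists and the cell type markers were chosen with earlier results of these data known. The p-values of the limma model rest on the spread between mice within groups, pooled over the 8 groups of 3. The number of arrays limits the precision. Promoters came from RefSeq (GRCm38.p6) and had an entry used here for Tgfb1, Tgfb2, Tgfbr1, Tgfbr2 and Tgfbi. Tgfb3, Ccn2 and Skil had no entry, and member windows on chromosome 18, where Smad7 lies, were not used. The procedure was tested on simulated data before use. Alternatives were the normalization, the filter, the offset, moderation, array weights, a replicate block, the arrays of a comparison alone, the methods' t-test, the study's thresholds and leaving out each array.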

Additional observations from a re-analysis of the deposited data

How the results depend on the processing

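Of 34 called results on member probe sets, 29 kept their call in each of the 24 fits that leave out 1 array and 19 in each of 9 other settings, and 0 changed sign; of 19 on other pathway genes these were 7 and 5. For O3 against air in Tnfr+/+ lungs 7 probe-set calls became 0 with the arrays of each comparison alone and 0 with the methods' t-test after adjustment. In Tnfr-/- lungs 9 became 16 with array quality weights and 5 with that t-test after adjustment, and over both genotypes 12 became 19 with array weights. Between genotypes at one exposure 3 became 0 with the arrays alone, 16 at the study threshold, 17 with the methods' t-test at that threshold and 0 after adjustment; averaged over exposures 3 became 6 with array weights and 8 at the study threshold. The 0 interactions became 9 at the study threshold. The 19 pathway calls became 42 with array weights, 5 with the arrays alone and 69 at the study threshold, and 25 over every probe set of the listed genes. The causes were not tested, though the arrays of one comparison alone are fewer samples. Leaving out 1 array gave 5 to 7, 9 to 10, 11 to 17, 2 to 3, 3 to 4 and 0 to 0 calls for the member comparisons in that order and 12 to 27 for the pathway genes, the lowest without Tnfr-/- air replicate 3 and the highest without Tnfr+/+ O3 72 h replicate 1; the 17 came without Tnfr+/+ O3 48 h replicate 3. Whether replicate numbers mark mice that shared a day is not given in the labels. Deviations from group means correlated at a mean r of 0.0071 (-0.181 to 0.115) for the same number, and 9 of 24 arrays correlated best with their own number. Such correlations over all probe sets cannot decide whether the mice were paired. With the replicate block the counts were 7, 10, 12, 2, 3 and 0 (the call lost was Tgfbi at 48 h between genotypes), and 17 for the pathway genes. The 2 dim probe sets of Tgfbr1 had an SD of log2 values over the 24 arrays of 0.56 and 0.55, beside 0.31 for its brightest. This limits what small differences could be seen on them. The dim probe sets of Tgfb2 had an SD of 0.23 to 0.26.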

Other observations

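Comparisons that average over genotypes or exposures called some pathway genes further. Over both genotypes 2, 8 and 9 of the 50 rose at 24, 48 and 72 h, where 0.945%, 4.39% and 5.63% of all probe sets did. In the same comparisons 0, 2 and 2 fell, where 0.336%, 2.93% and 5.05% of all did. Dab2, an endocytic adaptor that binds the TGF-β receptors, rose by 0.48 at 48 h over both genotypes (limma adjusted p = 0.0092). Averaged over exposures, Tnfr-/- lungs had higher intensity of Tgfbr3, the co-receptor betaglycan, by 0.44 (adjusted p = 0.03) and of Itgb6, already called at 72 h of O3, by 0.50 (adjusted p = 0.018). They had lower Cdkn1a, a cell cycle inhibitor, with a difference of -0.54 (adjusted p = 0.024), and lower Ltbp3, a latent TGF-β binding protein, at -0.36 (adjusted p = 0.046). These genes, Itgb6 apart, were named after their values were seen. Genotype differences averaged over exposures were called for 2 of the 50 pathway genes in each direction, and 5.65% of all probe sets were called in that comparison.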
